A study of Fragaria x ananassa with 28 samples.

Results

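Strawberry fruit injected with nordihydroguaiaretic acid (NDGA) were followed from day 5 to day 8 by mRNA sequencing, with 2 libraries at each day. These 4 libraries, chosen by their labels alone, are 4 of the 14 mRNA libraries and of the 28 libraries of the series. The fruit were receptacles, the fleshy part of the fruit, of the octaploid cultivar 'Toyonoka' (Fragaria × ananassa). About 2 weeks past flowering, 100 µL was injected into the receptacle core by way of the pedicel. The solution was 100 µM NDGA, 1 µM abscisic acid (ABA) or distilled water. The NDGA and ABA groups were taken at days 5 and 8, and water fruit at days 0, 5 and 8. Each group pooled RNA of 10 fruits, and nothing states that its 2 libraries are separate pools. The p-values therefore measure only how far these libraries vary, and that variation may be technical. The NDGA groups have no day 0 of their own, no uninjected fruit and no measured ABA content.

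Strawberry is a non-climacteric fruit whose ripening is driven mainly by ABA, while auxin from the achenes (the true fruits on its surface) holds it back. As the receptacle ripens, it stops expanding, loses chlorophyll, softens through enzymes that loosen and cut cell walls, and turns red as a MYB transcription factor switches on the anthocyanin route. The labels give NDGA as a blocker of ABA synthesis, and it more widely serves to inhibit lipoxygenases. The question of the comparison is which transcripts still moved over these days in fruit whose ripening was held back.

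Levels are RPKM (reads per kilobase, scaled to library size) on a de novo assembly, and names are those of the Swiss-Prot protein each transcript was matched to by the authors. A change is the day 8 mean minus the day 5 mean in log2(RPKM + 1), a scale on which changes of low transcripts come out too small. The NDGA libraries held 7894784 to 8782473 reads, against 7356752 to 9035037 over all mRNA libraries, so that 1 read on a 1 kb transcript was worth 0.114 to 0.127 RPKM in them. Each library was closest to its own replicate (Pearson's r of log2 values across transcripts 0.915 at day 5 and 0.914 at day 8, against at most 0.895 to any library of another group). A transcript was called where limma, fitted to all 14 libraries, gave an adjusted p below 0.05.

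One set of transcripts set groups apart in a way that neither day nor treatment follows. It was chosen after the data were seen and without the NDGA libraries, as transcripts below a mean of 0.5 RPKM in water day 5, ABA day 5 and ABA day 8 but at 2 or more in water day 0 and water day 8. It held 552 transcripts, 169 of them described, among them a histone H3.2 and a snakin-1 form. Their summed level was 4230 and 4142 RPKM in the libraries of water day 0, 45 and 39 in water day 5, and 3943 and 3831 in water day 8. In ABA fruit it was 40 and 33 at day 5 and 32 in each library at day 8. NDGA fruit lay between, with 1786 and 1859 at day 5 and 812 and 839 at day 8. In NDGA fruit 41 of the 552 fell and 0 rose from day 5 to day 8. In water 444 rose, as the definition of the set by low water day 5 and higher water day 8 levels largely fixed. Hence 332 of the transcripts changing more downward in NDGA than in water belong to this set. The part of sample origin or of read assignment in this pattern was not tested. The main counts of calls in NDGA, in water and between them are given below with and without the set. List counts include it.

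**Figure D1:**
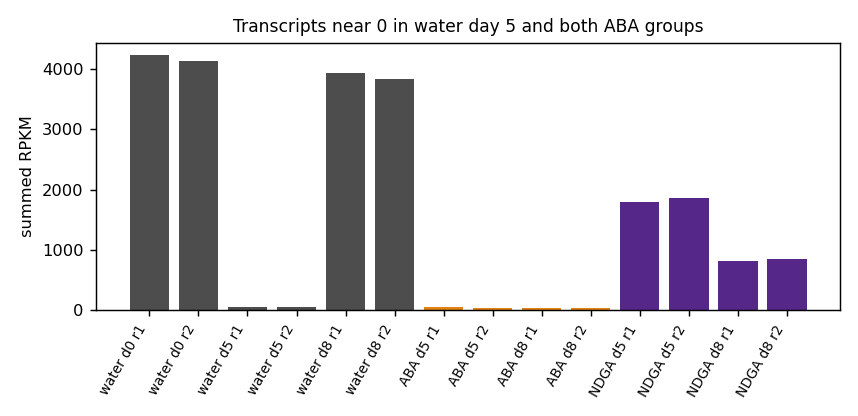
Summed RPKM (vertical axis) of the 552 transcripts near 0 in water day 5 and both ABA groups, one bar for each of the 14 mRNA libraries (d day, r replicate; grey water, orange ABA, purple NDGA). The NDGA bars stand at 1786 and 1859 at day 5 and at 812 and 839 at day 8, between those of water day 0 and day 8 and those near 0.

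From day 5 to day 8 of NDGA fruit, the calls included rises of 12 of 115 flavonoid enzymes, 32 of 165 histones, and forms of MYB113, expansin-A8 and endoglucanase 8. They included falls of 25 of 56 small heat shock proteins, 23 of 35 PR-10 allergens, 19 of 61 aquaporins and 11 of 122 light harvesting and photosystem proteins. Of 99136 transcripts tested, 1723 (1.74%) were called, 643 rising (0.649%) and 1080 falling (1.09%), with a median change over all of 0.02. The 2 days did not overlap for 40.5% of the tested transcripts, so that separation alone says little. The rising calls had a median size of 1.17 on the log2 scale and the falling ones of 1.59, and 373 and 652 of them carried a description. Without the 552 transcripts above, 633 rose and 1023 fell. The calls rest on the spread shared by all groups: limma on the 4 NDGA libraries alone called 0, with 12659 at an unadjusted p under 0.05. They also rest on both libraries of each day, since leaving out NDGA day 5 replicate 1, day 5 replicate 2, day 8 replicate 1 or day 8 replicate 2 gave 635, 647, 672 and 675 calls. In bulk samples, fewer cells of a type and less RNA per cell cannot be told apart. In the rest of the Results, transcripts given as rising or falling in NDGA without a remark on this were called with each of the 4 libraries left out in turn. This does not cover the closing sections.

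Fewer transcripts were called in NDGA fruit than over the same days in water or ABA fruit, which share no library with them. Water gave 4629 calls (4.67%, with 2.89% rising and 1.78% falling). Without the 552 transcripts water gave 3997, with 2317 rising and 1680 falling. ABA gave 5147 calls (5.19%, with 1.75% rising and 3.44% falling). The ABA split of 1734 rising and 3413 falling turns to 2936 and 2084 under median-ratio scaling, which moves the median ABA change from -0.13 to 0.00. With 1 library of the compared groups left out, water gave 2110 to 2475 calls and ABA 2656 to 2769, against 635 to 675 in NDGA. With limma on the compared groups alone the counts were 0 in NDGA, 45 in water and 0 in ABA (12659, 15721 and 15808 at an unadjusted p under 0.05), so that the order against ABA was lost. Of the 2865 transcripts that rose in water, 203 rose in NDGA (7.09% of the water calls and 31.6% of the NDGA calls) and 148 fell (5.17%). The median NDGA change of the 2865 was -0.04. Their water median of 1.69 was made large by choosing them as risers in water. Without the set of 552, that NDGA median was 0.00 over 2421 transcripts, of which 203 rose and 107 fell in NDGA. Of the 1764 that fell in water, 258 fell in NDGA (14.6% of the water calls and 23.9% of the NDGA calls) and 50 rose (2.83%). The median NDGA change of the 1764 was -0.10, and their water median of -1.35 likewise reflects how they were chosen. The change itself differed between NDGA and water for 2628 transcripts (2.65%), with 850 (0.857%) changing more upward in NDGA and 1778 (1.79%) more downward. Without the 552 these counts were 757 and 1325. Against ABA it differed for 1835 transcripts (1.85%), 1017 (1.03%) upward and 818 (0.825%) downward. That split turns to 462 and 1239 under median-ratio scaling, which moves the median difference of all transcripts from 0.18 to 0.00.

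**Figure D2:**
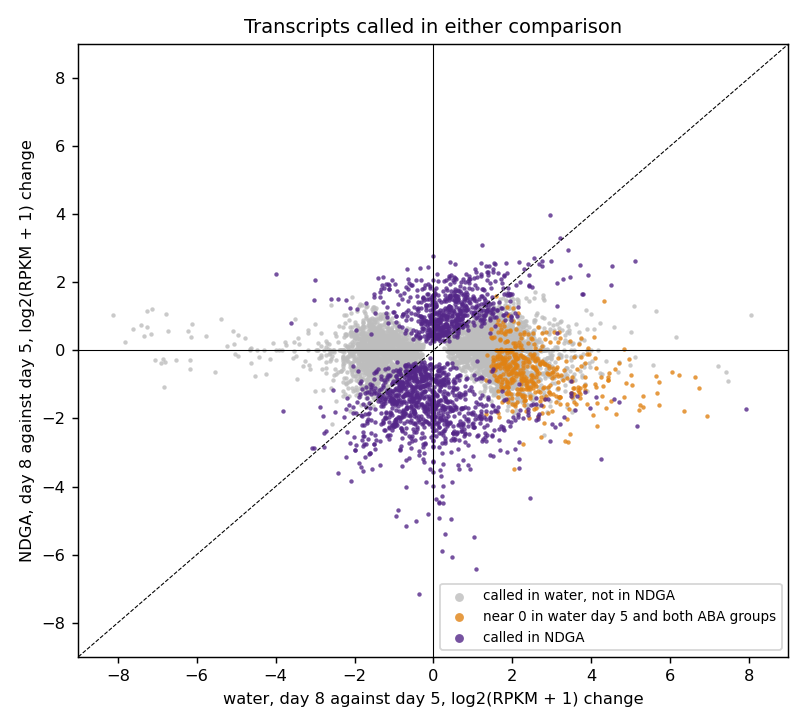
Change from day 5 to day 8 in NDGA fruit (vertical axis) against the change in water fruit (horizontal axis), both on the log2(RPKM + 1) scale, for transcripts called in either (purple called in NDGA, grey called in water only, orange those of the 552 near 0 in water day 5 and both ABA groups); the dashed line marks equal change. The 2865 transcripts rising in water spread around a median NDGA change of -0.04.

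Some enzymes of the pigment route rose in NDGA fruit. Flavonoid enzymes make anthocyanins, the red pigments, and proanthocyanidins, the tannins of young fruit, from a shared set of early steps. Of 115 tested members (260 in the table), 12 rose and 2 fell, against 0.649% and 1.09% of all transcripts, and the median change was 0.10. With 1 NDGA library left out, 9 to 11 rose. Chalcone synthase 2 (comp115927_c0_seq1), the first enzyme of the route, was at 12.5 and 11.4 RPKM at day 5 and at 80.5 and 76.0 at day 8. All day 8 values lay well above those of day 5, a rise of 2.61 ± 0.14 (SE, adjusted p = 2.6e-07). In water it went from a mean of 6.95 to 272, a rise larger by 2.50 (interaction adjusted p = 7.9e-06).

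Enzymes of the next steps rose too. Chalcone-flavonone isomerase 1 (comp105294_c0_seq1), which closes the ring of the chalcone, went from 29.9 and 27.5 to 135 and 117 RPKM, a rise of 2.10 (adjusted p = 3.2e-07) that was smaller than in water by 1.20 (interaction adjusted p = 0.00085). Flavanone 3-hydroxylase, here named naringenin,2-oxoglutarate 3-dioxygenase (comp105372_c0_seq9), went from 5.06 and 6.34 to 31.5 and 28.8. This rise of 2.22 (adjusted p = 5.9e-06) was again short of that in water, by 1.69 (interaction adjusted p = 0.00096). The summed forms of its component went from 17.6 and 18.2 to 48.2 and 45.4 (1.31, adjusted p = 0.00013). Dihydroflavonol 4-reductase (comp88271_c0_seq1), which leads towards anthocyanins, went from 11.5 and 13.4 to 53.8 and 63.0. Its rise of 2.14 (adjusted p = 0.00029) differed from that in water by -1.33, which did not pass the test (interaction adjusted p = 0.0596).

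Anthocyanidin reductase, which turns anthocyanidins into tannin units, moved the other way relative to water. Its transcript comp103703_c0_seq1 was at 36.2 and 37.6 RPKM at day 5 and at 164 and 143 at day 8, a rise of 2.02 (adjusted p = 1.5e-05), and comp103703_c1_seq1 rose by 1.99 (adjusted p = 9.2e-06). Both rose more in NDGA than in water, by 1.33 and 1.10 (interaction adjusted p = 0.00664 and 0.0133), where the first went from a mean of 20.0 to 32.5. Flavonoid 3'-monooxygenase (comp110719_c0_seq1), which adds a hydroxyl group to the flavonoid ring, was at 1.11 and 3.00 and then at 11.8 and 12.4 (adjusted p = 0.00777), but lost its call with NDGA day 5 replicate 1, day 8 replicate 1 or day 8 replicate 2 left out (adjusted p up to 0.105). The 2 falling members were forms of leucoanthocyanidin dioxygenase from 1 assembly component. Of these comp100967_c1_seq1 went from 14.2 and 11 to 1.54 and 1.58, a change of -2.40 (adjusted p = 0.00025). Both of its day 8 values lay below the day 5 range. Forms of this enzyme from other components rose, among them comp101059_c0_seq11, from 8.89 and 7.12 to 23.6 and 20.5 RPKM (1.36, adjusted p = 0.00109).

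MYB113, the transcription factor that switches on anthocyanin genes, was among 4 rising MYB members of 111, where 0.649% of all transcripts rose. Its form comp93382_c0_seq1 was at 0.294 and 0.787 RPKM at day 5 and at 7.53 and 7.71 at day 8, a rise of 2.50 ± 0.21 (adjusted p = 2.3e-05). The most abundant form, comp113395_c0_seq6, went from 2.17 in both libraries to 8.4 and 15.7 (1.98, adjusted p = 0.00086). In water the first form went from a mean of 8.71 to 127, and its rise in NDGA was smaller by 1.22 (interaction adjusted p = 0.0486). For the second the difference was -1.16 and did not pass (interaction adjusted p = 0.122). The other rising members were MYB4 (comp93925_c1_seq1) and a second Myb-related repressor (comp93925_c0_seq1), both named after repressors of phenylpropanoid genes, at 1.78 and 1.11 then 10.2 and 8.38, and at 0.433 and 1.19 then 8.32 and 10.9. Each lost its call with 2 of the 4 libraries left out in turn, with adjusted p up to 0.0793 and 0.0606 at the least favourable one.

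Of 24 tested members of the phenylpropanoid entry, which feeds both pigments and lignin, 0 rose and 4 fell (1 to 2 with 1 library left out). Of the entry members 16.7% and of the lignin enzymes 5.56% were called, against 1.74% of all transcripts. The transcript of 4-coumarate-CoA ligase 2 (comp106520_c0_seq1), which activates coumarate, changed by -1.21 (adjusted p = 0.00245). It was at 32.4 and 28.5 RPKM and then at 14.3 and 11.1. Among 144 lignin enzymes, caffeoyl-CoA O-methyltransferase (comp100580_c1_seq1) fell from 117 and 120 to 61.5 and 62.2, by 0.93 (adjusted p = 0.00013), and 2 members rose and 6 fell in all (0 to 1 and 2 to 4 with 1 library left out). For aroma, the most abundant form of the At1g23740-like quinone oxidoreductase (comp108005_c1_seq2), named after a protein related to the enzyme of furaneol synthesis, was at 166 and 186 and then at 200 and 215 and was not called (0.24, adjusted p = 0.302). Another form, comp99435_c1_seq1, at 16.7 and 19.3 and then 24.8 and 27.2, was called at an adjusted p of 0.0486, which rose to between 0.0957 and 0.298 with any 1 of the 4 libraries left out and to 0.104 under median-ratio scaling. In water it went from a mean of 40.3 to 362, a rise larger by 2.63 (interaction adjusted p = 1.2e-06).

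**Figure D3:**
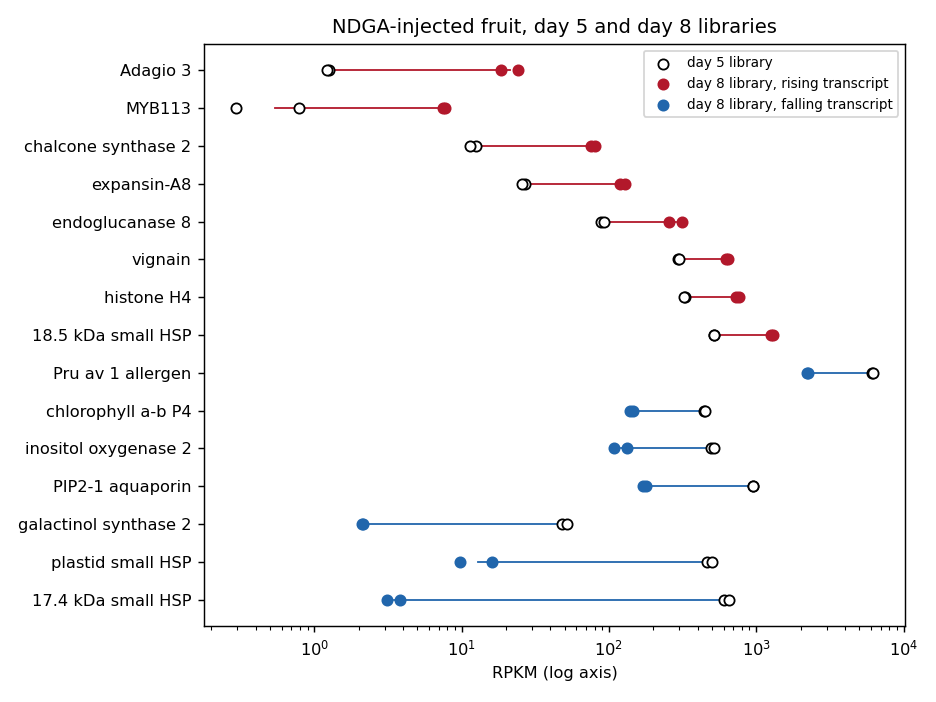
RPKM on a log axis (horizontal) in the 4 NDGA libraries for 15 named transcripts (rows); open circles are the 2 day 5 libraries, filled circles the 2 day 8 libraries (red rising, blue falling), and lines join the means of the days. The 15 were picked from the calls, and in each row the days do not overlap, as in 40.5% of all tested transcripts. The longest line is that of the 17.4 kDa small heat shock protein, from 604 and 657 to 3.85 and 3.10.

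Wall-loosening proteins split by member, and 20.8% of 53 expansins were called, against 1.74% of all transcripts. Expansins loosen the bonds between wall polymers without cutting them, and 4 of 53 rose while 7 fell (1 to 2 and 2 to 3 with 1 library left out). Expansin-A8 (comp105538_c0_seq2) was at 27.0 and 25.9 RPKM at day 5 and at 120 and 129 at day 8, a rise of 2.19 ± 0.12 (adjusted p = 3.1e-07). In water it went from 87.2 to 305, and the 2 changes differed by 0.40, which did not pass (interaction adjusted p = 0.288). A second and more abundant form, comp105538_c0_seq1, went from 115 and 108 to 217 and 211 (0.94, adjusted p = 0.00317, and 0.0528 without NDGA day 5 replicate 2). Expansin-A1 (comp102218_c0_seq2), by contrast, went from 231 and 239 to 160 and 152, a fall of 0.59 (adjusted p = 0.00159).

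Endoglucanase 8, a cellulase that cuts wall glucans, went opposite ways in NDGA and water. Its form comp104453_c1_seq2 was at 88.7 and 92.1 RPKM at day 5 and at 257 and 314 at day 8, a rise of 1.64 ± 0.09 (adjusted p = 3.5e-07). In water it fell from a mean of 964 to 338 (-1.51, adjusted p = 3.5e-07), and the changes differed by 3.15 (interaction adjusted p = 2.3e-08). The form comp104453_c0_seq9 rose likewise, from 130 and 115 to 363 and 343 (1.52, adjusted p = 2.3e-05). Of the hemicellulose and glucan enzymes 10.2% were called, against 1.74% of all transcripts. Of 147 hemicellulose and glucan enzymes, 6 rose and 9 fell (3 to 4 and 2 to 4 with 1 library left out). Among the latter was a xyloglucan endotransglucosylase/hydrolase (comp99586_c0_seq4), which cuts and rejoins xyloglucan chains, from 367 and 355 to 226 and 188 (-0.81, adjusted p = 0.00186).

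Of 190 tested pectin enzymes 3 rose and 19 fell, with a median change of -0.12, and 4 to 6 fell with 1 library left out. The falling member with the smallest adjusted p was the polygalacturonase subunit JP650 (comp118585_c1_seq2), named after a non-catalytic subunit of the enzyme that cuts pectin chains, at 35.7 and 38.5 RPKM and then at 14.1 and 13.5 (-1.36, adjusted p = 0.00046). It fell in water too, by 1.21, and the changes did not differ beyond the spread (interaction adjusted p = 0.843). Of the pectin enzymes 11.6% were called in NDGA, against 1.74% of all transcripts. Pectinesterase 3 (comp113712_c0_seq3), which strips methyl groups from pectin, rose from 31.7 and 35.9 to 51.5 and 59.5 (0.70, adjusted p = 0.00711), a call lost without NDGA day 5 replicate 1 or day 8 replicate 2 (0.0992 and 0.103).

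Small heat shock proteins included the largest fall of all calls. They are chaperones that bind unfolding proteins, and their transcripts are known to surge under heat and other stress. Of the tested ones 50.0% were called, against 1.74% of all transcripts. Of 56 tested members (111 in the table), 25 fell and 3 rose, with a median change of -0.80, and 18 to 19 fell with 1 library left out. The 17.4 kDa class III member (comp104790_c0_seq4) was at 604 and 657 RPKM at day 5 and at 3.85 and 3.10 at day 8, a change of -7.15 ± 0.21 (adjusted p = 8.9e-10). In water its means were 4.51 and 3.23. In ABA fruit it rose from a mean of 202 to 1376.

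Members of the class I, plastid and mitochondrial groups fell with it. The 17.6 kDa class I member (comp99896_c0_seq2) went from 661 and 773 RPKM to 5.61 and 9.52 (-6.42, adjusted p = 1.6e-07). The plastid member (comp101496_c0_seq2) went from 461 and 504 to 16 and 9.80 (-5.15, adjusted p = 7.5e-08), and the 26.5 kDa mitochondrial one (comp104295_c1_seq1) from 275 and 281 to 9.39 and 8.61 (-4.80, adjusted p = 4.1e-08). In each the day 5 and day 8 libraries stood far apart. An 18.5 kDa class I transcript (comp120961_c0_seq1) was at 46.9 and 41.3 at day 5 and at 0 in both day 8 libraries (adjusted p = 1.8e-06). The most abundant falling member, the 17.8 kDa class I protein (comp107291_c0_seq1), was at 2245 and 2247 and then at 440 and 521 (-2.23, adjusted p = 8.7e-08).

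The class did not fall as a whole. Another 18.5 kDa class I transcript (comp101171_c0_seq1) was at 520 and 513 RPKM and then at 1254 and 1297, a rise of 1.3 (adjusted p = 2.4e-07). An 18.2 kDa class I form (comp105318_c1_seq4) also rose, from 1101 and 1273 to 2001 and 2162 (0.81, adjusted p = 0.00178). The list took 1.37% and 1.45% of summed RPKM at day 5 and 0.847% and 0.934% at day 8, above water at both days (means 0.255% and 0.283%). In ABA fruit its mean share rose from 1.56% to 5.19%. The change was lower in NDGA than in water for 19 members and higher for 2, and against ABA lower for 30 and higher for 0.

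Larger chaperones moved in both directions, and 10.8% of them were called, against 1.74% of all transcripts. Of 314 HSP70, HSP90, HSP101 and J-domain members 29 fell and 5 rose (13 to 15 and 3 to 4 with 1 library left out), and the median change was -0.01. ClpB1 (comp118250_c1_seq3), a disaggregase that pulls proteins out of aggregates, went from 450 and 456 RPKM to 170 in both libraries (-1.41, adjusted p = 1.1e-07), and fell in water as well, by 0.91. HSP90-1 (comp114753_c0_seq3), a chaperone of signalling proteins, rose from 144 and 148 to 346 and 342 (1.23, adjusted p = 1.1e-06). Of 47 heat stress factors, regulators of such genes, 2 rose and 3 fell, against 0.649% and 1.09% of all transcripts. Among the falling ones, factor B-2b (comp103520_c0_seq3) went from 41.7 and 34.7 to 8.34 and 10.0 (-1.94, adjusted p = 2.5e-05). Galactinol synthase 2, which opens the route to the stress sugars of the raffinose family, fell as well. Its form comp100889_c0_seq6 went from 47.7 and 51.6 to 2.13 and 2.12 (-4.02, adjusted p = 6.0e-06).

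PR-10 major allergens, 68.6% of them called against 1.74% of all transcripts, held many falls. These small proteins of the birch pollen allergen family bind flavonoids and other ligands, are induced in plant defence, and include the strawberry Fra a proteins. Of 35 tested members (46 in the table) 23 fell and 1 rose, the median change was -2.31, and 13 to 19 fell with 1 library left out. The falling members came from 11 assembly components, so that some could share reads. The most abundant, named after cherry Pru av 1 (comp101722_c0_seq4), was at 6075 and 6232 RPKM at day 5 and at 2243 and 2220 at day 8, a change of -1.46 ± 0.04 (adjusted p = 8.9e-10). In water it rose from a mean of 1317 to 4541, and the changes differed by -3.25 (interaction adjusted p = 7.1e-12).

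Other allergen forms fell as well. A form named after apricot Pru ar 1 (comp101722_c0_seq5) went from 156 and 187 RPKM to 1.27 and 2.63 (-5.90, adjusted p = 3.3e-05), and comp100956_c0_seq14 from 623 and 532 to 28.6 and 21.6 (-4.48, adjusted p = 3.4e-07). Summed over their components, which joins forms that could split reads, comp101722_c0 fell by 1.5 (adjusted p = 9.9e-10) and comp100956_c0 by 4.34 (adjusted p = 5.1e-10). The 1 rising member, comp95362_c0_seq1, went from 22.5 and 26.1 to 69.2 and 70.9 (1.49, adjusted p = 0.00021) and fell in water. The list took 0.650% and 0.651% of summed RPKM at day 5, more than in any other group, and 0.215% and 0.211% at day 8. In water the mean share went from 0.158% to 0.434%.

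Of other defence proteins 8.99% were called, against 1.74% of all transcripts, and those called fell. Of 189 chitinases, glucanases, thaumatin-like proteins and their kin, 17 fell and 0 rose (5 to 9 fell with 1 library left out). A basic glucan endo-1,3-beta-glucosidase (comp99479_c0_seq1), which cuts fungal wall glucans, was at 94.2 and 97.0 RPKM and then at 22.1 and 25.5 (-1.97, adjusted p = 3.9e-05). In water it rose from a mean of 3.72 to 46.1, and it was at 3.86 and 5.78 in ABA fruit, while water day 0 stood at a mean of 96.3. Ethylene-responsive factor 1B (comp128233_c0_seq1), a regulator of defence genes, was at 5.11 and 5.41 at day 5 and at 0 in both day 8 libraries (adjusted p = 0.00037). All 7 called members (4.93%) of the 142 AP2 and ERF factors fell.

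**Figure D4:**
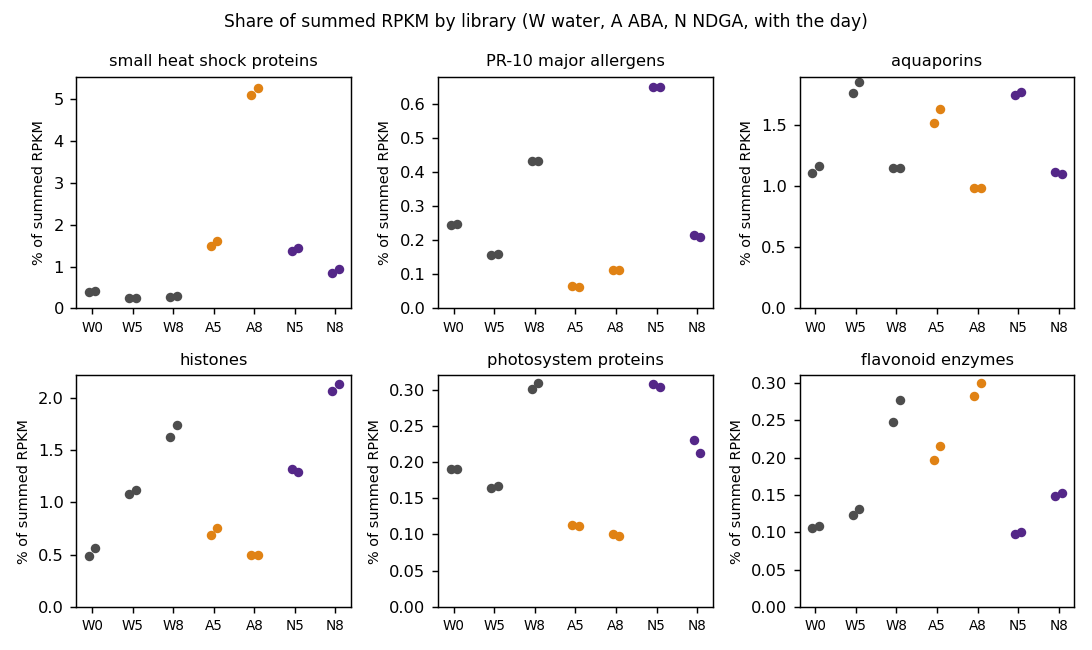
Share of summed RPKM (vertical axes, from 0) taken by 6 gene lists in each of the 14 mRNA libraries (points; W water in grey, A ABA in orange, N NDGA in purple, with the day). From N5 to N8 small heat shock proteins, PR-10 allergens, aquaporins and photosystem proteins go down and histones and flavonoid enzymes go up, and allergens stand highest at N5 (0.650% and 0.651%).

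Aquaporins, the channels that let water cross membranes and that serve expanding cells, had more members falling than rising in NDGA and in water fruit. Of 61 tested members 19 fell and 1 rose, with a median of -0.40, and 13 to 15 fell with 1 library left out. In water 20 fell and 9 rose. Of the aquaporins 32.8% were called in NDGA, against 1.74% of all transcripts. The plasma membrane channel PIP2-1 (comp99476_c0_seq1) was at 946 and 945 RPKM and then at 179 and 171, a change of -2.43 ± 0.07 (adjusted p = 8.9e-10). The water means were 1101 and 160, and the changes differed by 0.34, which did not pass (interaction adjusted p = 0.0989). A form named PIP2-2 (comp101242_c1_seq2) went from 276 and 300 to 36.1 and 41.9 (-2.86, adjusted p = 1.2e-06), and the vacuolar channel TIP2-1 (comp100164_c0_seq13) from 666 and 631 to 319 and 282 (-1.11, adjusted p = 9.7e-05). The 1 rising member, NIP1-2 (comp96820_c1_seq2), went from 0.604 and 0.605 to 4.78 and 5.39 (1.92, adjusted p = 0.00098). In water it rose from a mean of 5.82 to 154. The summed forms of its component went from 6.65 and 6.01 to 15 and 14.7 in NDGA (1.11, adjusted p = 0.00067). The list's share of summed RPKM went from 1.75% and 1.77% to 1.12% and 1.10%.

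Inositol oxygenases, which open the inositol ring on a route to wall sugars and, in some plants, ascorbate, held most of the falls in the ascorbate list. Of its 152 tested members 11 fell and 1 rose (6 to 7 fell with 1 library left out). Of the ascorbate list 7.89% was called, against 1.74% of all transcripts. Inositol oxygenase 2 (comp99647_c1_seq2) went from 490 and 519 RPKM to 133 and 109 (-2.06, adjusted p = 1.8e-06). It fell in water too, by 1.58, with no difference past the test (interaction adjusted p = 0.25). NADP-dependent malic enzyme (comp99633_c0_seq2), which breaks down malate, showed the same in both, from 442 and 420 to 260 and 278 (-0.68, adjusted p = 8.9e-05) and by 0.69 in water. Alcohol dehydrogenase 1 (comp106877_c0_seq4), of fermentation and aroma alcohols, fell from 374 and 395 to 150 and 143 (-1.39, adjusted p = 4.4e-06), less than in water by 0.81 (interaction adjusted p = 0.00525).

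Light harvesting and photosystem proteins, which are lost as fruit plastids stop photosynthesis, held falls but no rises in NDGA. Of them 9.02% were called in NDGA, against 1.74% of all transcripts. Of 122 tested members 11 fell and 0 rose (5 to 7 fell with 1 library left out), while in water 29 rose and 2 fell, and the change was lower in NDGA than in water for 33 and higher for 0. The chlorophyll a-b binding protein P4 (comp95310_c0_seq1) was at 441 and 447 RPKM at day 5 and at 145 and 139 at day 8, a change of -1.64 ± 0.10 (adjusted p = 1.1e-06). Its water means were 255 and 268, and the changes differed by -1.71 (interaction adjusted p = 1.3e-05). CP26 (comp101848_c0_seq1) fell from 104 and 105 to 39.5 and 33.4 (-1.50, adjusted p = 3.9e-05). Chlorophyllide a oxygenase (comp118611_c0_seq3), which makes chlorophyll b, fell by 1.23 (adjusted p = 0.00141), from 34.4 and 33.5 to 13.3 and 14.6.

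Histones, which package newly made DNA, were the list with the most rising members. Of 165 tested, from 68 assembly components, 32 rose and 1 fell, with a median of 0.37, and in water 55 rose and 1 fell. In NDGA 20.0% were called, against 1.74% of all transcripts. The 32 came from 19 components, so that some could share reads. The rising changes were 0.52 to 1.92, and 8 to 12 rose with 1 library left out and 24 under median-ratio scaling. Histone H4 (comp116527_c0_seq8) was at 331 and 325 RPKM at day 5 and at 763 and 727 at day 8, a rise of 1.18 ± 0.09 (adjusted p = 6.0e-06). A more abundant H4 form, comp101474_c0_seq5, went from 2192 and 2085 to 3710 and 3596 (0.77, adjusted p = 1.1e-05). In ABA fruit the same form fell from a mean of 1000 to 496, and the changes of NDGA and ABA differed by 1.78. The single falling member, H3.2 form comp107748_c1_seq7 (-1.76, adjusted p = 0.0142, and up to 0.161 with 1 library left out), belonged to the 552 transcripts, and the forms of its component summed rose by 0.87 (adjusted p = 0.00187).

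Cell cycle transcripts moved both ways. The sliding clamp PCNA (comp101495_c0_seq3), which holds DNA polymerase on its template, went from 195 and 171 RPKM to 387 and 330 (0.97, adjusted p = 0.00037), and did so in water by 1.10 (interaction adjusted p = 0.789). Cyclin-D3-1 (comp110005_c0_seq1), which starts division in growing tissue, fell instead, from 69.8 and 60.2 to 26.3 and 27.1 (-1.25, adjusted p = 0.00126). Among 179 cell cycle members 3 rose and 3 fell, so that 3.35% were called, against 1.74% of all transcripts. The 60S ribosomal protein L5 (comp104209_c0_seq1) went from 237 and 232 to 377 and 369 (0.67, adjusted p = 0.00101), 1 of 9 rising members among 729 cytosolic ribosomal proteins, whose share of summed RPKM went from 8.60% and 8.52% to 9.42% and 9.37%. Those 9 became 1 to 3 with 1 library left out, 3 under median-ratio scaling and 45 with the replicate number as a block, and 0.649% of all transcripts rose.

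Members of the route to ABA were called about as often as all transcripts (1.72% against 1.74%). Of 58 members of the carotenoid route to ABA and of ABA synthesis and breakdown, 0 rose and 1 fell, and NCED1 (comp98325_c0_seq1), which cuts the carotenoid precursor of ABA, was at 3.59 and 1.77 RPKM at day 5 and at 2.55 and 1.66 at day 8 (-0.21, adjusted p = 0.862). Linoleate 9S-lipoxygenase 5 (comp111446_c0_seq1), of the enzyme class that NDGA inhibits, fell from 350 and 374 to 212 and 209 (-0.78, adjusted p = 0.0002), and by 0.59 in water (interaction adjusted p = 0.529). 12-oxophytodienoate reductase 2 (comp99452_c0_seq3), related to the enzyme of jasmonate synthesis, rose from 0.316 and 1.90 to 8.44 and 11.6 (2.48, adjusted p = 0.00156). Of 16 TIFY repressors of jasmonate response none passed limma's test in either direction, where 1.74% of all transcripts did.

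Among hormones of growth, 5.95% of auxin and 10.3% of gibberellin members were called, against 1.74% of all transcripts. Of 252 auxin members 12 fell and 3 rose (2 to 5 and 1 with 1 library left out). The repressor IAA29 (comp106468_c1_seq1) went from 13.2 and 14.9 RPKM to 2.13 and 3.01 (-2.08, adjusted p = 0.00024). A minor form of the auxin-induced ARG7 (comp103544_c1_seq2) rose from 0.574 and 0.862 to 5.58 and 5.71 (1.96, adjusted p = 0.00075). The summed forms of its component were at 11.4 and 4.76 and then at 19 and 17.6 (1.15, adjusted p = 0.0336). Of 107 gibberellin members 9 fell and 2 rose, with 3 of the 9 among the 552 transcripts, and 3 to 5 fell with 1 library left out. Gibberellin-regulated protein 14 (comp103173_c0_seq4), a small cysteine-rich peptide, went from 33.2 and 32.3 to 7.6 and 6.83 (-2.04, adjusted p = 0.00111). Snakin-1 (comp116484_c0_seq14), an antimicrobial peptide of that family and 1 of the 552, fell from 64.1 and 61.9 to 15.3 and 20.7 (-1.77, adjusted p = 0.00164, and 0.246 with a pseudocount of 0.1).

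Cytokinin response regulators and a clock protein rose from low levels. Of the cytokinin members 6.86% were called, against 1.74% of all transcripts. Of 102 cytokinin members 6 rose and 1 fell (2 rose with 1 library left out). ARR12 (comp118383_c1_seq1), a response regulator that turns on cytokinin target genes, was at 3.46 and 2.25 RPKM and then at 22.8 and 21.9, a rise of 2.61 ± 0.22 (adjusted p = 2.0e-05), beside water means of 1.85 and 21.5. Adagio protein 3 (comp107278_c1_seq1), a blue light receptor that degrades repressors of flowering by the time of day, went from 1.27 and 1.21 to 18.6 and 24.1 (3.31, adjusted p = 1.1e-05), beside water means of 0.92 and 16.6. For neither did the difference from water pass the test (interaction adjusted p = 0.682 and 0.942). CONSTANS-like 4 (comp108286_c0_seq4), a light-regulated factor, fell from 56.9 and 57.5 to 11.7 and 11 (-2.24, adjusted p = 1.1e-05). EID1-like F-box protein 3 (comp105711_c0_seq1), related to a brake on phytochrome signals, rose from 25.0 and 22.2 to 117 and 121 (2.29, adjusted p = 6.7e-06). The hour of sampling is not stated.

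Among proteases, vignain (comp101911_c0_seq1), a cysteine protease of ageing tissue, rose from 296 and 299 RPKM to 625 and 642 (1.09 ± 0.06, adjusted p = 5.4e-07), more than in water by 0.43 (interaction adjusted p = 0.0176). RD21a (comp106917_c0_seq1), a vacuolar protease of stressed tissue, fell from 517 and 539 to 275 in both libraries (-0.94, adjusted p = 2.3e-05). In water it changed by 0.13 (interaction adjusted p = 0.00014). Of autophagy and senescence members 11.3% were called in NDGA, against 1.74% of all transcripts. Of 97 autophagy and senescence members 5 rose and 6 fell (2 to 3 and 4 to 5 with 1 library left out). NAC factor 29 (comp103951_c0_seq1), a regulator of ageing in other plants, fell from 31.8 and 24.5 to 7.98 and 8.31 (-1.66, adjusted p = 0.00072), and by 1.70 in water. The MADS-box factor AGL9 homolog (comp104579_c0_seq5), of the SEPALLATA group needed for strawberry ripening, rose from 149 and 144 to 235 in both (0.68, adjusted p = 0.00101). Sugar carrier protein C (comp108611_c0_seq1), which moves hexoses, fell from 93.6 and 92.8 to 37.5 and 40.6 (-1.24, adjusted p = 1.4e-05), and by 1.18 in water.

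**Figure D5:**
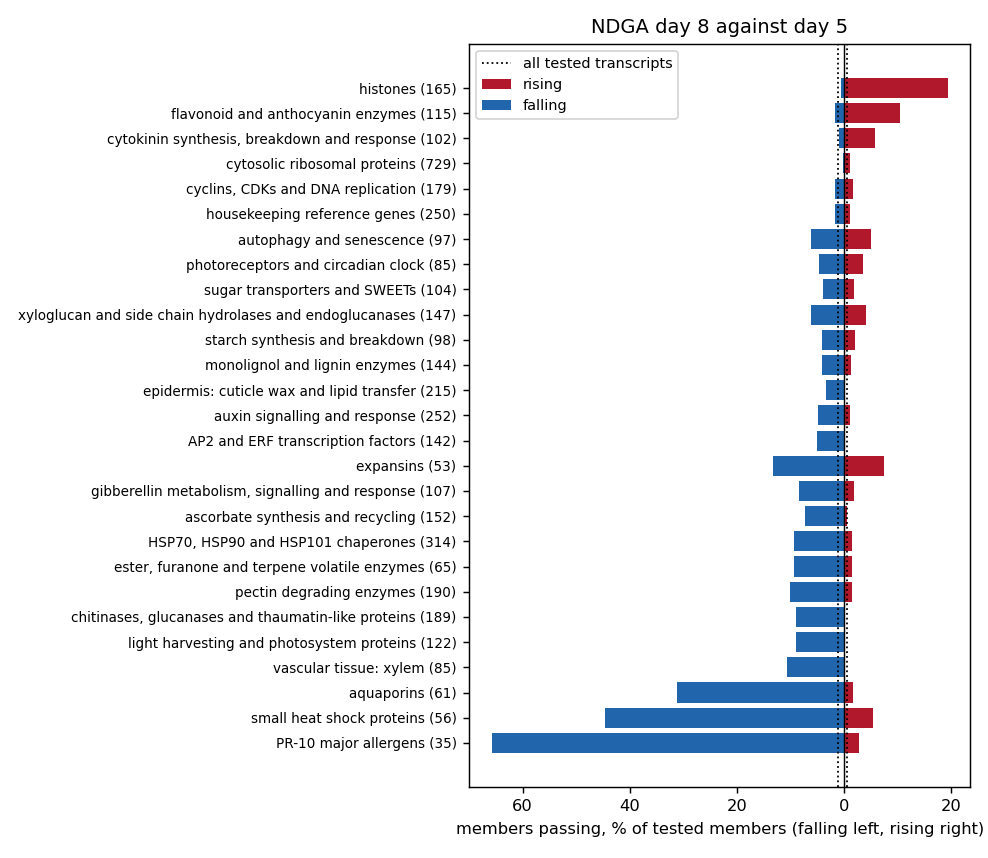
Members called in NDGA day 8 against day 5 as a percentage of the tested members (number in brackets) of each list with 6 or more calls, falling to the left in blue and rising to the right in red; dotted lines mark the 1.09% falling and 0.649% rising of all tested transcripts. PR-10 allergens (23 of 35) and small heat shock proteins (25 of 56) reach farthest left and histones (32 of 165) farthest right.

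Markers of tissues other than receptacle flesh were followed as well. Achene seed storage and oil body transcripts took 0.0246% and 0.0223% of summed RPKM at day 5 and 0.0229% and 0.0202% at day 8, against a mean of 0.543% in water day 5 and 0.033% in water day 8. Legumin A (comp113743_c1_seq5), a storage globulin of seeds, was at 2.56 to 5.68 in the NDGA libraries and at a mean of 447 in water day 5. Of 87 such members 0 rose and 2 fell in NDGA and 53 fell in water. Thus 46 of the 850 changes that were more upward in NDGA than in water came from this list. Of the 2, oleosin 16 kDa (comp99952_c1_seq1) went from 17.6 and 13.1 RPKM to 1.86 and 1.83 (-2.51, adjusted p = 0.00086). It changed by -1.75 in water. Of 43 late embryogenesis abundant proteins and dehydrins, the other achene list, 4 fell (9.3%) and 0 rose. The share of that list went from 0.321% and 0.322% to 0.194% and 0.221%. In water its mean share went from 0.529% to 0.215%. Of 85 xylem members 9 fell and 0 rose (2 to 5 fell with 1 library left out), among them xylem serine proteinase 1 (comp111480_c0_seq9), from 129 and 134 to 59.9 and 60.0 (-1.12, adjusted p = 0.00013). Of 215 cuticle members of the epidermis 7 fell and 0 rose (2 to 5 fell with 1 library left out), among them the lipid-transfer protein AKCS9 (comp102703_c0_seq2), which carries lipids in the wall, from 29.6 and 31.8 to 2.44 and 3.72 (-2.97, adjusted p = 0.0002). Called were 2.3% of the seed storage, 9.3% of the late embryogenesis, 10.6% of the xylem and 3.26% of the cuticle members. Over all transcripts 1.74% were called. The part of achene, xylem or epidermis share in the falls above was not tested.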

How the data were processed

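Polyadenylated RNA was sequenced on an Illumina HiSeq with paired reads, per the labels' protocols, which speak of 7 mRNA libraries where 14 are given. RPKM values of 301219 assembled transcripts (98600 components) in 14 libraries are the authors' deposited values, per the file headers. No source used here names the aligner or the counting tool. Multiplying by length gave whole reads (within 0.1 of a read, below 1000 reads) for 100% of values, and intervals are not given beyond the SE of the fit. The 8 lines without a transcript name and 7 columns of group means were not used. A component's forms may be alleles, subgenome copies or splice variants, so values of single forms are uncertain where they share reads.

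Transcripts reaching 1 RPKM in 2 libraries (99136, of which 34209 described) were tested with limma 3.58.1 (R 4.3.3) on log2(RPKM + 1), 7 groups, with a trended prior (residual df 7, prior df 6.05), without covariates and with Benjamini-Hochberg adjustment within each comparison. Interactions are the NDGA change minus the water or ABA change. The fit was tested on simulated data. The 2 libraries of each NDGA group varied beyond counting error (median chi-square across transcripts 1.22, where counting error alone gives 0.455).

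The members and the 53 keyword lists over Swiss-Prot names were chosen with earlier results of these data known. Named were, per list, the called rising and falling transcript of lowest adjusted p that reached a mean of 5 RPKM on either day (else the most abundant member), the 12 largest changes each way among described calls with a mean of 10 or more, 6 reference transcripts, and 6 per direction of each interaction; not all are printed, and list members beyond these were chosen after their values were seen. Alternatives were a pseudocount of 0.1, no filter, a filter at 5 RPKM, median-ratio and quantile scaling, a replicate block, the compared groups alone, limma voom on recovered reads (weights of the most abundant 1% capped at the 99th percentile), component sums and each library left out. Leaving out the 552 transcripts, and component sums of single named transcripts, were added after the data were seen.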

Additional observations from a re-analysis of the deposited data

Results flagged for a closer look

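The transcripts below changed differently from day 5 to day 8 in NDGA than in water or ABA fruit (limma interaction, adjusted p below 0.05), and are the 6 described ones in each direction with the smallest adjusted p and a mean of 10 RPKM or more in some group compared. Values are the NDGA change minus the other change on the log2(RPKM + 1) scale.

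Against water, the changes more upward in NDGA were those of the seed storage transcripts 11S globulin G3 (9.17), vicilin-like antimicrobial peptides 2-1 (8.23), vicilin (8.06) and legumin B (7.64), of endoglucanase 8 (3.15) and of fruit protein pKIWI501 (1.62). The 4 storage transcripts were at 0.931 to 5.82 RPKM in every NDGA library and fell in water, so these differences come from the water libraries. The changes more downward were those of snakin-1 (-8.13), gibberellin-regulated protein 1 (-8.05), the 17.4 kDa class III heat shock protein (-6.78), the allergen Pru av 1 (-3.25), the 17.8 kDa class I heat shock protein (-3.10) and a probable mannitol dehydrogenase (-2.54). Snakin-1 belongs to the 552 transcripts near 0 in water day 5, where its mean was 0.300 RPKM. Gibberellin-regulated protein 1 does not meet that definition, but its mean in water day 5 was 1.04 RPKM.

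Against ABA, the changes more downward were those of the 17.4 kDa class III (-9.91), 26.5 kDa mitochondrial (-8.09), class I fragment (-5.42) and 17.8 kDa class I (-5.20) heat shock proteins, of Pru av 1 (-2.29) and of luminal-binding protein 8 (-1.92). The changes more upward were those of deoxyuridine 5'-triphosphate nucleotidohydrolase (2.02), histone H4 (1.78), HMG1/2-like protein (1.65), pKIWI501 (1.37), type 3 metallothionein-like protein (1.24) and aquaporin PIP2-1 (1.10), and PIP2-1 fell by 0.62 in NDGA and by 1.72 in ABA.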

How the results depend on the processing

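The NDGA day 8 against day 5 count (1723) stayed within 1.5 times under a pseudocount of 0.1 (1222), no filter (1472), a filter at 5 RPKM (2404), median-ratio scaling (1624), quantile normalization (1735), voom on recovered reads (2369), component sums (1557) and without the 552 transcripts (1656). Fitted on the compared groups only, limma called 0 in NDGA (12659 at an unadjusted p under 0.05), 45 in water, 0 in ABA (15808 unadjusted), 1440 for NDGA minus water and 807 for NDGA minus ABA. With 1 library of the compared groups left out, which leaves that group 1 library assumed to vary like the others, counts were 635 to 675 in NDGA, 2110 to 2475 in water, 2656 to 2769 in ABA, 1595 to 1833 for NDGA minus water and 951 to 1140 for NDGA minus ABA. NDGA minus water gave 1667 with component sums, over fewer features, and NDGA minus ABA gave 2814 with the filter at 5 RPKM; the cause was not tested. With component sums, added after the data were seen for single transcripts, 3 named falls turned upward, histone H3.2 (comp107748_c1_seq7, 0.87), 60S ribosomal protein L44 (comp101526_c0_seq2, 0.21) and late embryogenesis abundant protein 1 (comp110838_c0_seq5, 0.28). Replicate numbers were not shown to pair the samples (correlation of same-numbered NDGA deviations 0.061), and the replicate block gave 2276 calls in NDGA, 5361 in water, 6115 in ABA, 3165 for NDGA minus water and 2513 for NDGA minus ABA. Depth limits transcripts of a few reads, where 1 read on 1 kb is worth over 0.11 RPKM.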
